A study of Papio anubis with 18 samples.

Results

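Of the 29475 genes counted in RNA-seq libraries of pluripotent cells of the olive baboon, 5 were followed here because they had low counts in both induced pluripotent stem cell (iPSC) lines and almost none in both embryonic stem cell (ESC) lines. They are ENSPANG00000031426, ENSPANG00000032997, ENSPANG00000029807, ENSPANG00000032125 and ENSPANG00000035728. Each of 4 lines had 3 libraries, 12 in all: ESC B4, ESC B15, iPSC 160-2 and iPSC M14939#3. No line carried a treatment or a named allele, and all were grown on feeder cells in the same medium for human pluripotent cells. The labels do not name the animals behind the lines, the cells that were reprogrammed or the method of reprogramming. They also do not say whether libraries of a line came from separate cultures. P-values therefore measure the spread between libraries, which may be partly technical, and 2 lines stand for each cell type.

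ESC lines are derived from early embryos, and iPSC lines from somatic cells in which a small set of transcription factors restored pluripotency. Lines of both types share the core network of pluripotency factors. Genes silent in one line and transcribed at a low level in another are a known feature of such comparisons, since lines can differ in genotype, in marks retained from the source cell and in changes gained in culture. In bulk RNA a low level can be a few molecules in each cell or more molecules in a small share of the cells, and these 2 cases cannot be told apart. The count table pairs no identifier with a symbol, and 0 of its identifiers were matched by the reference table of baboon genes, so no known function can be given for the 5 genes. For the same reason the pluripotency, fibroblast and differentiation markers could not be looked up, and RNA of the feeder cells was not tested.

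Depth sets what can be seen at this level. Total counts ran from 22685551 to 41215151 per iPSC library and from 12049925 to 62634176 per ESC library. Values are given as counts and as CPM, the count scaled to the library's own total (counts per 1000000). A library with no count of a gene still allows a level of 3 counts, which was 0.0479 CPM in the deepest ESC library and 0.249 CPM in the shallowest. Intervals and these limits reflect counting error alone. Amplified reads carried no molecular identifiers and so are not independent molecules.

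The contrast of iPSC with ESC chose these genes, so it is described here without a test. Among the 30 values that the 5 genes have in the 6 ESC libraries, 15 were 0 counts, 29 were at most 3 counts and the highest was 7 counts. In 4 of the 5 genes every iPSC library lay above every ESC library, as it did in 0.497% of the 17106 genes that passed the filter on low counts. The exception was ENSPANG00000032125, whose lowest iPSC library lay inside the ESC range. All 5 genes passed the filter, and they did so through the iPSC libraries: no ESC library of any of them reached its threshold of 0.378 CPM.

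**Figure D1:**
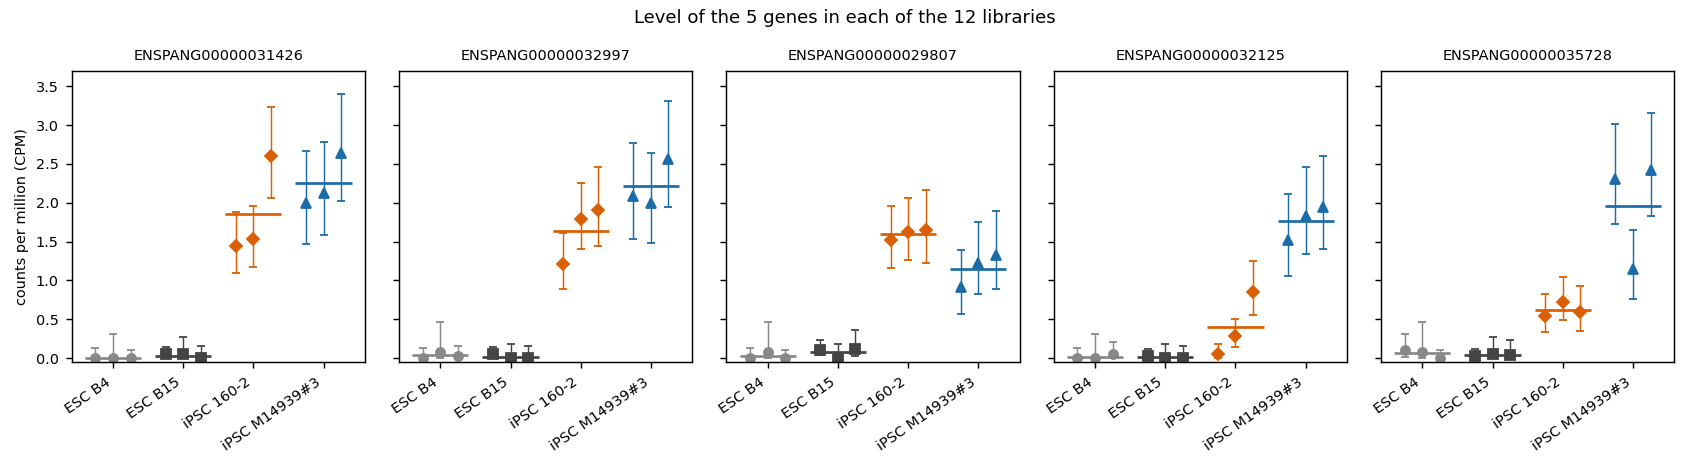
Level of each gene in CPM (vertical axis) in the 12 libraries, grouped by cell line; points are libraries, bars are exact 95% counting intervals and horizontal lines are the means of 3 libraries. The ESC libraries stay at or below 0.124 CPM for all 5 genes, and ENSPANG00000032125 in 160-2 spreads from 0.0516 to 0.855 CPM.

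ENSPANG00000031426 had the highest mean of the 5 genes in iPSC. Its counts were 56, 63 and 79 in replicates 1 to 3 of 160-2, which is 1.44, 1.53 and 2.60 CPM. In M14939#3 they were 46, 52 and 60, or 2.00, 2.12 and 2.64 CPM. The 2 lines overlapped: replicate 3 of 160-2 lay among the M14939#3 libraries. ESC B15 had 3, 1 and 0 counts and ESC B4 had 0 in each library. After scaling by library size, the 356 iPSC and 4 ESC counts gave a ratio of 87.5 (95% counting interval 33.9 to 323).

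ENSPANG00000032997 followed a similar course. Its counts were 47, 74 and 58 in 160-2 (1.21, 1.80 and 1.91 CPM) and 48, 49 and 58 in M14939#3 (2.09, 2.00 and 2.56 CPM). Every M14939#3 library was above every 160-2 library, though the nearest values were 2.00 and 1.91 CPM. With totals scaled by TMM, edgeR's correction for library composition, the lines overlapped. ESC B15 had 3, 0 and 0 counts, and ESC B4 had 0, 1 and 1. The 334 iPSC and 5 ESC counts gave a scaled ratio of 65.6 (95% counting interval 27.9 to 203).

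ENSPANG00000029807 had the highest ESC counts of the 5 genes and was the only one of them lower in M14939#3. Its counts were 59, 67 and 50 in 160-2, at 1.52, 1.63 and 1.64 CPM, the tightest of the 5 genes within an iPSC line (SD 0.0662 CPM, n = 3). Counting error is wider than this spread: the 95% counting interval of replicate 1 was 1.16 to 1.96 CPM. In M14939#3 its counts were 21, 30 and 30, at 0.913, 1.22 and 1.32 CPM, each below every 160-2 library. ESC B15 held 7, 0 and 3 counts, and ESC B4 held 0, 1 and 0. The scaled ratio of the 257 iPSC to the 11 ESC counts was 23.0 (95% counting interval 12.6 to 46.6).

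ENSPANG00000032125 varied most between iPSC libraries relative to its mean, with a coefficient of variation of 74.3%, against 66.8% for ENSPANG00000035728, which had the larger SD (0.860 against 0.804 CPM, n = 6). In 160-2 it had 2, 12 and 26 counts, which is 0.0516, 0.291 and 0.855 CPM. The exact 95% counting intervals of the first and the third of these, 0.00625 to 0.186 and 0.558 to 1.253 CPM, did not overlap. In M14939#3 it had 35, 45 and 44 counts, at 1.52, 1.84 and 1.94 CPM, with intervals that overlapped one another. ESC B15 had 2, 0 and 0 counts and ESC B4 had 0, 0 and 2, the last of which is 0.0586 CPM and above replicate 1 of 160-2. Against all ESC libraries the scaled ratio was 76.1 for M14939#3 (95% counting interval 29.0 to 284) and 16.4 for 160-2 (5.92 to 63.1).

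ENSPANG00000035728 had counts in 5 of the 6 ESC libraries, more libraries than any other of the 5 genes, though never above 3 counts. ESC B15 had 2, 1 and 1, and ESC B4 had 3, 1 and 0. In 160-2 its counts of 21, 30 and 18 were 0.541, 0.728 and 0.592 CPM. In M14939#3 its counts of 53, 28 and 55 were 2.30, 1.14 and 2.42 CPM, so replicate 2, the only M14939#3 library run on 2 lanes, was the lowest of that line. It still lay above every 160-2 library. The scaled iPSC to ESC ratio was 25.2 (95% counting interval 12.5 to 59.1), from 205 and 8 counts.

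The difference between the 2 iPSC lines was not itself used to choose the genes. The choice did ask for a low level in both lines, so it was not wholly separate from this comparison. In M14939#3 relative to 160-2, ENSPANG00000032125 and ENSPANG00000035728 had the highest ratios of scaled counts, at 4.64 (95% counting interval 3.23 to 6.81) and 2.95 (2.19 to 4.004). The ratio was smaller for ENSPANG00000031426, at 1.20 (0.964 to 1.48, which holds 1), and for ENSPANG00000032997, at 1.30 (1.04 to 1.62, just above 1). ENSPANG00000029807 went the other way, with a ratio of 0.689 (0.523 to 0.902). Counting error is only part of the spread, so these intervals are narrower than those that include the spread between libraries.

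With that spread included, none of the 5 genes passed the test of the lines, against 8.84% of the 17106 genes tested. The test was the quasi-likelihood F-test of edgeR, adjusted by Benjamini-Hochberg over all genes, with the line and the library set (libraries run on 1 or on 2 lanes) as terms. ENSPANG00000032125 came closest, at a log2 difference of 2.38 (SE 0.73, 95% interval 0.84 to 3.96, adjusted p = 0.0540 by edgeR). ENSPANG00000035728 had a log2 difference of 1.55 (SE 0.55, 95% interval 0.39 to 2.72, edgeR adjusted p = 0.0849). Both had an unadjusted p under 0.05, and DESeq2 called both of these 2 genes and no other of the 5. ENSPANG00000032125 had passed the filter on low counts in 3 libraries of M14939#3 and 1 of 160-2, so it entered this test mainly through the line where it was higher. Its call lay at the threshold: adjusted p was below 0.05 in 8 of 19 alternatives and ran from 0.00476 to 0.215 over all 19 (edgeR or DESeq2), with M14939#3 higher in each.

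Single libraries moved the value of ENSPANG00000032125. The log2 difference was 1.63 without replicate 1 of 160-2 (edgeR adjusted p = 0.210), 1.73 without replicate 2 of M14939#3 (edgeR adjusted p = 0.215) and 3.28 without replicate 3 of 160-2 (edgeR adjusted p = 0.0459). It was also past the threshold without ESC B15 replicate 1 (edgeR adjusted p = 0.0311) or ESC B15 replicate 2 (edgeR adjusted p = 0.0419). ENSPANG00000035728 was past the threshold in 3 of its 19 alternatives, 1 of them the fit without ESC B4 replicate 3 (edgeR adjusted p = 0.0474).

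For the other 3 genes the fit left room for differences in either direction. ENSPANG00000031426 differed by 0.23 on the log2 scale (95% interval -0.74 to 1.20, edgeR adjusted p = 0.786) and ENSPANG00000032997 by 0.38 (95% interval -0.62 to 1.39, edgeR adjusted p = 0.643). ENSPANG00000029807 fell by 0.53 (95% interval -1.67 to 0.60, edgeR adjusted p = 0.554). The first of these was 0.012 without 160-2 replicate 1, 0.12 without 160-2 replicate 2, 0.52 without 160-2 replicate 3, 0.35 without M14939#3 replicate 1 and 0.10 without M14939#3 replicate 3, and the second was 0.18 without 160-2 replicate 1. These intervals do not show that the lines were alike. An exact two-sided permutation test of mean CPM, 3 libraries against 3, gave p = 0.4 for ENSPANG00000031426 and p = 0.1, the smallest this design allows, for each of the other 4. Among these 4 the lines did not overlap, as in 30.5% of the genes tested: 3 were higher in M14939#3 (17.6% of the genes tested) and 1 was lower (12.9%). With TMM-scaled totals ENSPANG00000032997 left this set and 3 genes remained, against 30.5% again.

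**Figure D2:**
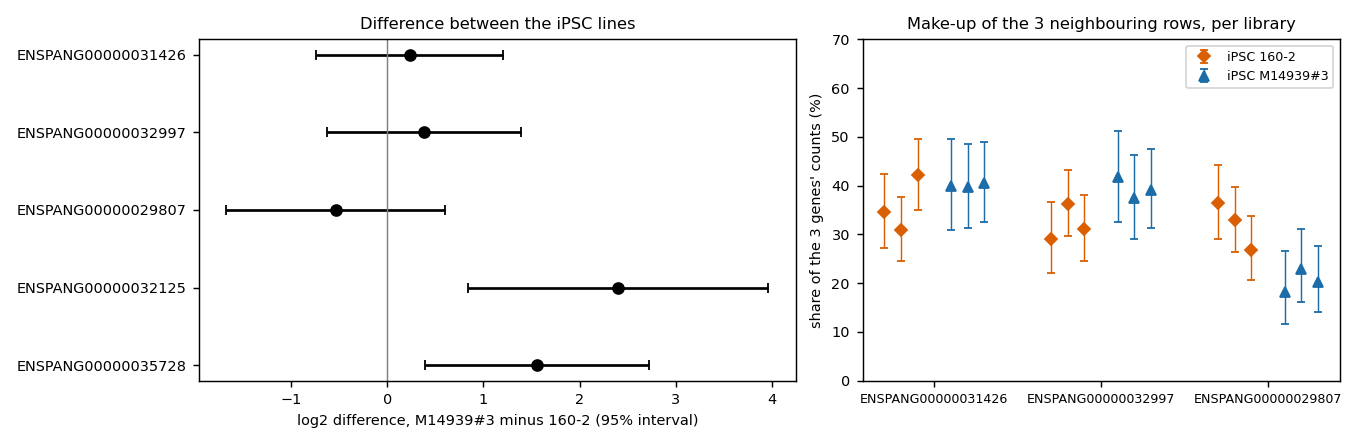
Left, unshrunken log2 difference between iPSC lines M14939#3 and 160-2 (horizontal axis) with its 95% interval from edgeR for each gene; right, share of the summed counts of 3 genes taken by each of them (%, vertical axis) in every iPSC library, with exact 95% binomial intervals. The 2 genes with intervals above 0 are ENSPANG00000032125 and ENSPANG00000035728, and the share of ENSPANG00000029807 is lower in each M14939#3 library than in any 160-2 library.

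The position of the genes in the deposited table was not used to choose them. ENSPANG00000031426, ENSPANG00000032997 and ENSPANG00000029807 stood on consecutive rows, 27270 to 27272 of 29475. The table is not sorted by identifier, since 51.1% of its steps from a row to the next ascend, and what its row order follows is not given in the sources used here. The 6 rows before these 3 had at most 22 counts each over the 6 iPSC libraries, and the 6 rows after had at most 20, against 257 to 356 for the 3 genes. The block of counts in iPSC thus began and ended with these rows. Counting strand was not marked by the library kits, and reads shared between overlapping or near-identical genes could not be told apart in these counts.

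The share of each gene in the summed counts of this block was compared between the lines. ENSPANG00000029807 took 36.4%, 32.8% and 26.7% of the block's counts in the 160-2 libraries, and 18.3%, 22.9% and 20.3% in the M14939#3 libraries. The lines did not overlap (exact two-sided permutation test, p = 0.1, the smallest possible with 3 against 3). Over all libraries of a line the share was 31.8% (exact 95% binomial interval 27.96 to 35.9%) in 160-2 and 20.6% (16.7 to 24.9%) in M14939#3. Such shares do not depend on the library total or its scaling. ENSPANG00000032997 took 32.1% ± 3.8 (SD, n = 3) in 160-2 and 39.4% ± 2.2 (SD, n = 3) in M14939#3, without overlap. ENSPANG00000031426 took 35.9% ± 5.8 and 40.1% ± 0.43 (SD, n = 3 each), with overlap. The shares in a library add up to the whole block, so a lower share of ENSPANG00000029807 raises the others and these are not separate results. How often shares in other runs of rows do not overlap was not tested. In the rows from ENSPANG00000032125 on, described next, the shares of all 3 rows overlapped between the lines (exact two-sided permutation p from 0.2 to 0.3). These comparisons of shares were added after the values were seen, and no p among them passed 0.05.

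The row of ENSPANG00000032125, 24791, was followed by 2 rows with a like pattern, ENSPANG00000029850 and ENSPANG00000035211, which are named for that place and were picked with their values in view. ENSPANG00000029850 had 3, 15 and 8 counts in 160-2, 15, 7 and 24 in M14939#3 and 3 in all ESC libraries. ENSPANG00000035211 had 1, 11 and 17 counts in 160-2, 7, 4 and 25 in M14939#3 and 1 in all ESC libraries. Like ENSPANG00000032125, both had their lowest 160-2 value in replicate 1. In M14939#3 they were unlike it: both were lowest in replicate 2, and ENSPANG00000032125 was lowest in replicate 1. Neither passed the filter on low counts, and their lines overlapped in CPM. In the fit without that filter, edgeR gave ENSPANG00000029850 a log2 difference of 1.43 between the lines (adjusted p = 0.343) and ENSPANG00000035211 one of 1.001 (adjusted p = 0.602). The rows next to these 3 had 26 counts in iPSC before and 11 after.

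ENSPANG00000035728, on row 3317, had no row next to it at its level. It had 205 iPSC and 8 ESC counts, the row before it 10 and 5, and the row after it, ENSPANG00000018785, 29 and 5. The row after also had more counts in M14939#3 (23) than in 160-2 (6), while the row before had 1 and 9.

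**Figure D3:**
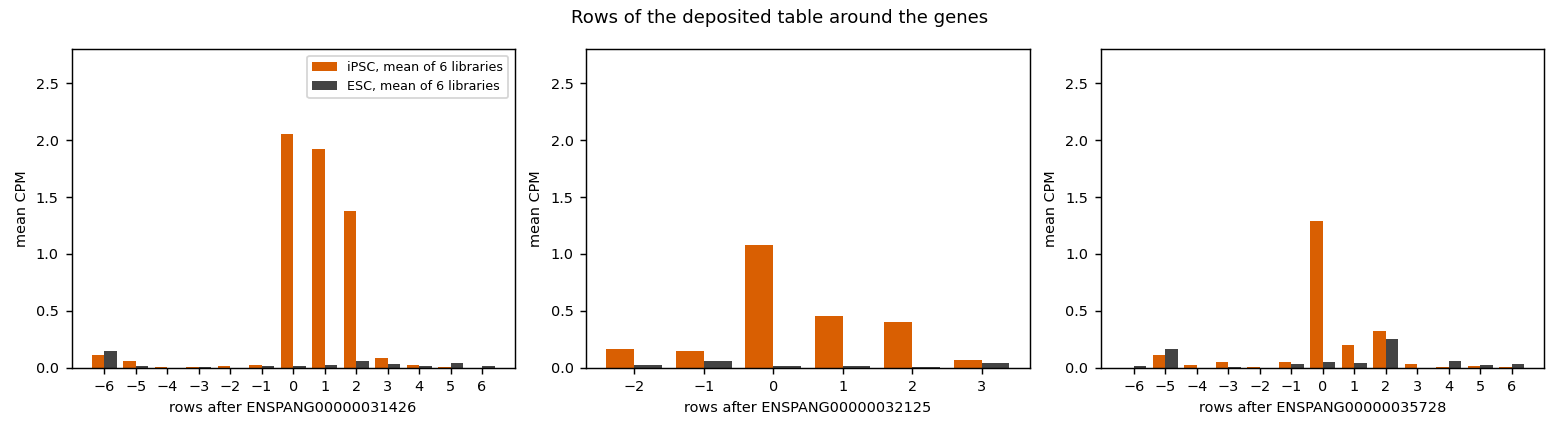
Mean CPM over 6 iPSC and 6 ESC libraries (vertical axis) for rows of the deposited table, numbered from ENSPANG00000031426 (left), ENSPANG00000032125 (middle) and ENSPANG00000035728 (right); the middle panel is limited to the rows near the gene because rows further away reach 9.73 CPM and more. On the left, 3 neighbouring rows have 1.37 to 2.06 CPM in iPSC and the other 10 rows drawn there at most 0.112 CPM in iPSC.

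The sample descriptions give every library a number after the letter p, which the labels do not define. It was 25, 65 and 84 for replicates 1 to 3 of 160-2 and 16, 17 and 40 for those of M14939#3. ENSPANG00000032125 was higher at each higher p number in both lines, from 0.0516 to 0.855 CPM in 160-2 and from 1.52 to 1.94 CPM in M14939#3. ENSPANG00000031426 also was, from 1.44 to 2.60 CPM in 160-2 and from 2.00 to 2.64 CPM in M14939#3. With CPM from library totals, 3 of the 5 genes ascended with the number in both lines (3.53% of the genes tested did), the third being ENSPANG00000029807. With TMM-scaled totals these were 2 genes, ENSPANG00000031426 and ENSPANG00000032125 (3.25% of the genes tested). Many of these steps are within counting error, and the 3 genes on neighbouring rows may not be separate observations.

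The highest p number of a line had the highest level in both lines for 4 of the 5 genes (13.7% of the genes tested), and for 2 of them with TMM-scaled totals (12.4%). ENSPANG00000035728 was the exception with library totals, with its 160-2 maximum of 0.728 CPM at the number 65. With TMM-scaled totals ENSPANG00000032997 and ENSPANG00000029807 also had their 160-2 maximum there. They had 1.88 and 1.70 CPM at 65, against 1.87 and 1.61 CPM at the highest number. In M14939#3 the values of ENSPANG00000035728 at the numbers 16 and 17 were 2.30 and 1.14 CPM. These libraries also differed in library set, since 16 was run on 1 lane and 17 on 2 lanes.

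**Figure D4:**
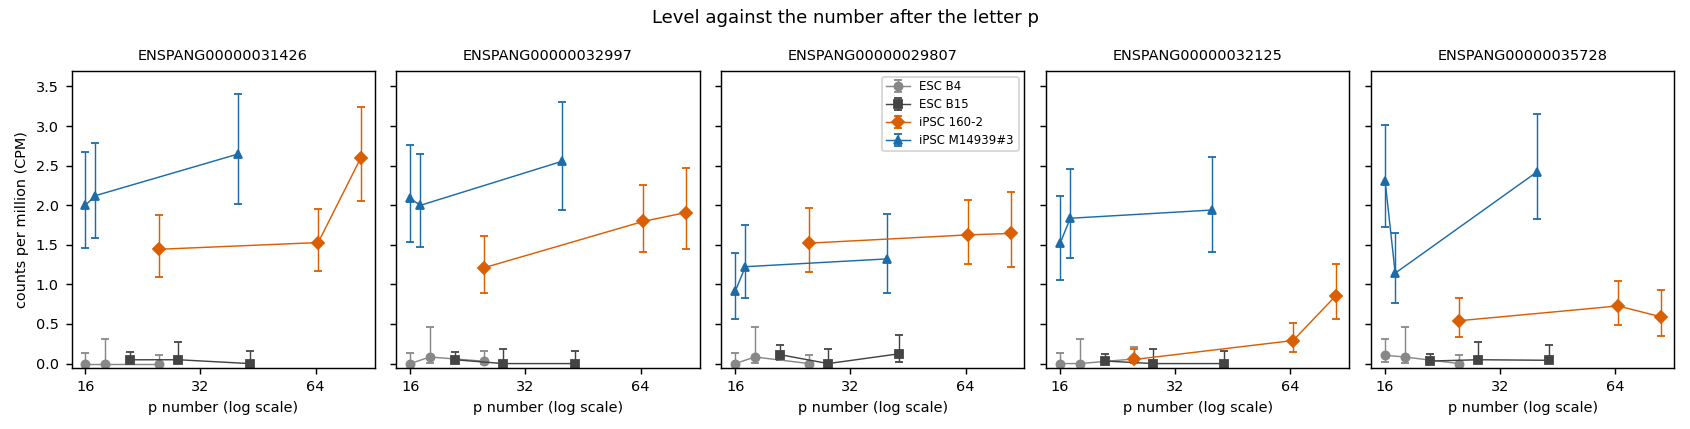
CPM of each gene (vertical axis) against the p number of the library (horizontal axis, log scale) with lines joining the libraries of a cell line and exact 95% counting intervals. ENSPANG00000032125 climbs from 0.0516 to 0.855 CPM in 160-2, while ESC libraries of any p number stay at or below 0.124 CPM for all genes.

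A slope with log2 of the p number within lines was tested in the 12 libraries with the line as a term. None of the 5 genes passed (0.52% of the 17106 genes did), none had an unadjusted p under 0.05 in edgeR, and DESeq2 called none of them, with 1 at an unadjusted p under 0.05. The slope of ENSPANG00000032125 was 1.12 on the log2 scale per doubling of the number (SE 0.55, 95% interval -0.03 to 2.32, edgeR adjusted p = 0.348). It was 0.36 without replicate 1 of 160-2 (edgeR adjusted p = 0.924), 0.68 without replicate 3 of 160-2 (edgeR adjusted p = 0.672) and 1.91 without replicate 3 of M14939#3 (edgeR adjusted p = 0.207). The other slopes were 0.30 for ENSPANG00000031426, 0.28 for ENSPANG00000032997, 0.15 for ENSPANG00000029807 and 0.17 for ENSPANG00000035728, with edgeR adjusted p from 0.724 to 0.898. A doubling in level per doubling of the number lay within the interval of each of these but ENSPANG00000029807 and ENSPANG00000031426, whose upper bounds were 0.96 and 0.99.

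The fitted slope of ENSPANG00000032125 was steeper in 160-2 than in M14939#3, but a difference between the lines was not established. The difference of slopes, M14939#3 minus 160-2, was -2.05 on the log2 scale per doubling (SE 0.92, unadjusted p = 0.0461 and adjusted p = 0.999 in the edgeR test). It did not pass after adjustment, as none of the 5 genes did (0.0175% of the genes tested did). DESeq2 gave no adjusted p for any of the 5 genes in this test. The p number and the library set also overlap: in 160-2 the number 25 was run on 2 lanes and the numbers 65 and 84 on 1. The difference between the sets, 1 lane minus 2 lanes within lines, was 1.01 for ENSPANG00000032125 (SE 0.73, edgeR adjusted p = 0.459), and none of the 5 genes passed that test in edgeR or DESeq2, with no unadjusted p under 0.05 in either (6.51% of the genes tested passed in edgeR). The set difference of ENSPANG00000032125 was 0.17 without 160-2 replicate 1, 0.69 without 160-2 replicate 3 and 2.41 without M14939#3 replicate 2, with edgeR adjusted p from 0.202 to 0.946. With both terms in the fit, the p number slope was 1.04 and the set difference 0.13. Within 160-2 the library set and the step from the number 25 to 65 cannot be told apart.

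The limits below follow the rule that chose the 5 genes, so the count of rows, the ranks and the ESC shares are description only. A mean of 0.05 to 3 CPM in each iPSC line, with an ESC mean of at most 10% of the iPSC mean, was met by 34 of the 29475 rows, and 12 of these had a count in all 6 iPSC libraries. By iPSC counts the 5 genes ranked 1, 2, 3, 6 and 7 of the 34. Ranks 4 and 5 were ENSPANG00000007971, at 1.69 CPM in 160-2 and 0.508 CPM in M14939#3, and ENSPANG00000007820, at 1.82 and 0.101 CPM, both picked with their values in view. Of the 34 rows, 23 had the higher mean in M14939#3 and 11 in 160-2. In 9 of the 34, over 50% of the summed iPSC CPM came from 1 library, 5 of them from M14939#3 replicate 1. None of the 5 genes was among these: their highest library held 19.9% to 31.4%. Just inside the limit on ESC was ENSPANG00000007820, with an ESC mean at 8.64% of the iPSC mean, and just outside were ENSPANG00000011881 at 10.7% and ENSPANG00000036257 at 11.6%, among rows counted in all 6 iPSC libraries. The 5 genes lay at 0.782% to 4.02%. Just above the limit of level was ENSPANG00000008790, at 3.41 CPM in M14939#3.

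**Figure D5:**
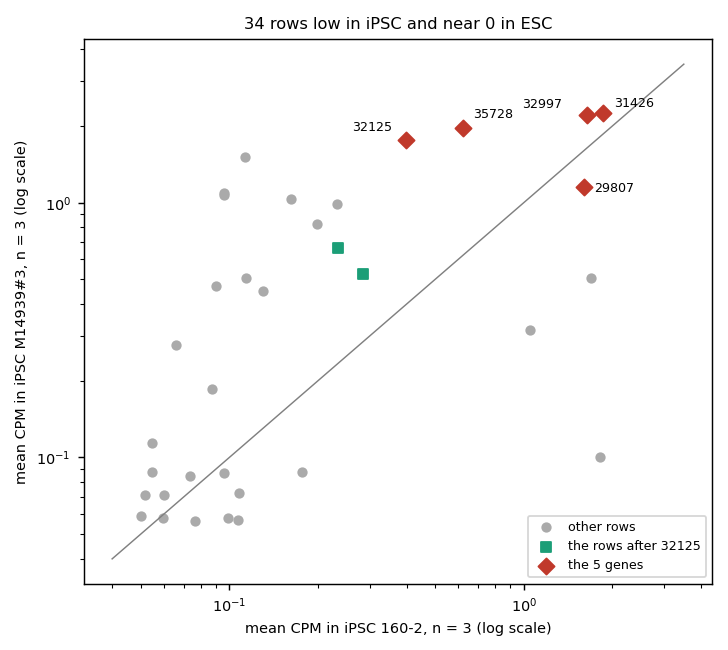
Mean CPM in iPSC M14939#3 (vertical axis, log scale) against mean CPM in iPSC 160-2 (horizontal axis, log scale), n = 3 libraries each, for the 34 rows with 0.05 to 3 CPM in each iPSC line and an ESC mean of at most 10% of the iPSC mean; the line marks equal means and the 5 genes carry the last digits of their identifiers, and squares are the 2 rows after ENSPANG00000032125. The 3 genes on neighbouring rows lie nearest to equal means at the high end. Of these, ENSPANG00000031426 and ENSPANG00000032997 lie above the line and ENSPANG00000029807 lies below it. ENSPANG00000032125 and ENSPANG00000035728 lie further above the line.

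Rows whose log2 CPM followed each gene most closely over the 12 libraries were taken by Pearson's r, as a description, since the step from ESC to iPSC that chose the genes dominates it. ENSPANG00000035342 ranked first for ENSPANG00000031426 (r = 0.985), ENSPANG00000032997 (r = 0.982) and ENSPANG00000029807 (r = 0.952), and second for ENSPANG00000035728 (r = 0.944). It had 385 to 774 CPM in iPSC and 3.25 to 5.35 CPM in ESC libraries. Second for ENSPANG00000031426 and ENSPANG00000032997 was ENSPANG00000021496 (r = 0.966 and 0.971), at 11.2 to 15.9 CPM in iPSC and 2.24 to 3.81 CPM in ESC libraries. Second for ENSPANG00000029807 was ENSPANG00000005066 (r = 0.929), at 19.8 to 29.1 CPM in iPSC and 7.23 to 10.96 CPM in ESC libraries.

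For ENSPANG00000032125 the closest rows were ENSPANG00000019067 (r = 0.972), which had 17 counts in all and none in ESC, and ENSPANG00000008430 (r = 0.930), at 199 CPM in M14939#3 and 138 CPM in 160-2. ENSPANG00000008430 was not low in ESC: it had 55.2 to 123 CPM there and 107 to 214 CPM in iPSC libraries, which overlap. For ENSPANG00000035728 the closest was ENSPANG00000025491 (r = 0.953), at 3.43 CPM in M14939#3 and 1.73 CPM in 160-2. Within the 6 iPSC libraries, which share lines and library sets, ENSPANG00000031426 and ENSPANG00000032997 had r = 0.774 with each other. ENSPANG00000032125, on a distant row, had r = 0.791 and r = 0.870 with them, and ENSPANG00000035728 had r = 0.430 and r = 0.743. ENSPANG00000029807 had r = -0.109 and r = -0.269 with them there, although it stands on the next row.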

How the data were processed

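The authors deposited raw read counts for 29475 Ensembl identifiers in 18 columns, 1 per library and lane. Of tools, featureCounts and edgeR are named, without role or version, per the submitters' processing notes. The aligner, genome build and annotation were not given in the sources used here. Per the labels' protocols, libraries were made with a SMART-Seq v4 low-input kit and Nextera XT. Columns were matched to samples by the sample descriptions, and lanes of a library were summed, giving 12 libraries.

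The 5 genes, the tests and the lists were chosen with earlier results of these data known. All 5 are named, along with the 2 rows most like each in log2 CPM (TMM, prior count 2, at least 10 counts in all). Tests used edgeR 4.0.16 in R 4.3.3: TMM, filterByExpr (minimum count 10), robust quasi-likelihood fit of all 12 libraries, Benjamini-Hochberg over 17106 genes, threshold 0.05. SEs and intervals come from the unshrunken difference and its F statistic, while printed log2 differences are edgeR's shrunken values. DESeq2 1.42.0 was an alternative. The code was tested on simulated data. Ratios are of counts over TMM-scaled totals with exact conditional binomial intervals. Exact p-values of the 5 genes are not adjusted over the 5.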

Additional observations from a re-analysis of the deposited data

Results flagged for a closer look

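Another stretch of the deposited table held neighbouring rows that were low in iPSC and near 0 in ESC, with more counts in 1 library than in the other iPSC libraries together. ENSPANG00000006893, ENSPANG00000008790, ENSPANG00000007632 and ENSPANG00000027479, on rows 7169, 7170, 7171 and 7173, were picked with their values in view. In replicate 1 of M14939#3 they had 29, 218, 70 and 64 counts, or 1.26, 9.48, 3.04 and 2.78 CPM, each set far above the other 5 iPSC libraries by the gap between the highest library and the next. Replicates 2 and 3 of that line had 0 and 2 counts of ENSPANG00000006893, 11 and 7 of ENSPANG00000008790, 4 and 0 of ENSPANG00000007632, and 1 and 3 of ENSPANG00000027479. In 160-2 the highest library was replicate 2 for 3 of them, with 12 counts of ENSPANG00000006893, 10 of ENSPANG00000008790 and 26 of ENSPANG00000027479, and replicate 3 for ENSPANG00000007632, with 5. In ESC, B15 replicate 3 stood apart in the same way for ENSPANG00000008790 (0.373 CPM, 9 counts) and ENSPANG00000027479 (0.29 CPM, 7 counts). None of these 4 rows passed the filter on low counts.

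ENSPANG00000035211, the row that follows ENSPANG00000029850, stood apart in ESC B15 replicate 1 through a single count (0.016 CPM), the only one in ESC. None of the 5 genes had a library that stood apart by this gap in the 6 iPSC or the 6 ESC libraries. The limit on the gap is set so that chance passes about 1 in 20 groups of normally distributed values. Low counts do not follow that distribution, and a single count among zeros is enough.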

How the results depend on the processing

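Of the 5 genes, 0 passed the test of the iPSC lines. This became 1 without a filter on low counts, 2 by DESeq2, 1 with a replicate block, 2 with only the 6 iPSC libraries, 1 with the p number as a further term, and 0 to 1 without single libraries. The count over all genes was 1513, and 2339 without a filter, 2555 by DESeq2, 877 with no term for the library set, 2512 with only the iPSC libraries and 317 to 2471 without single libraries (2471 without ESC B15 replicate 1, 751, 317 and 505 without 160-2 replicates 1 to 3, 466 and 605 without M14939#3 replicates 1 and 2). For the p number slope 0 of the 5 genes passed in the alternatives run. The 89 genes of the whole table became 324 without a filter, 846 by DESeq2, 2 with the replicate block, 0 with the p number itself, 0 with the library set as a term and 19 with only the iPSC libraries. Each library left out moved this count by over 1.5 times, from 0 (ESC B15 replicate 3, 160-2 replicates 1 and 3) to 554 (M14939#3 replicate 1). For the library sets, 1114 genes became 1811 without a filter, 1836 by DESeq2, 40 with the replicate block, 44 with the p number as a term, 508 with only the iPSC libraries and 457 to 1417 without single libraries (457 without 160-2 replicate 1, and 552 and 518 without replicate 3 of ESC B15 and of ESC B4). For the difference of slopes, 3 genes became 73 without a filter, 35 by DESeq2, 0 with the replicate block and 0 to 11 without single libraries (0 without 160-2 replicate 1 or M14939#3 replicate 3, 11 without ESC B15 replicate 3).

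The direction turned in 2 cases, both without replicate 3 of M14939#3. The slope of ENSPANG00000035728 was then -0.0043 (up to 0.30 without other libraries, and 1.51 with the replicate block, against 0.17). The difference of slopes of ENSPANG00000032125 was then 0.48 with an SE of 10.7 (as low as -3.68 without other libraries), since the p numbers left in that line are 16 and 17. The 34 rows became 15 with an ESC mean of at most 5% of the iPSC mean, which kept all 5 genes, and 25 to 51 without single libraries. The 12 rows counted in all 6 iPSC libraries became 8 and 10 to 19 (19 without M14939#3 replicate 2). Causes not given here were not tested.

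Replicate numbers are shared across lines, but no label ties them to a culture or day. They follow the order of the p numbers in every line, and each replicate 3 was run on 1 lane. Replicate number, p number and library set thus overlap. Deviations of same-numbered libraries from their line means correlated by -0.22 to 0.44 (18 pairs, mean r 0.13). Pairs of unlike number had a mean r of -0.064 (36 pairs), and 8 of 12 libraries correlated best with their own number. What else the shared numbers stand for was not tested. The replicate block was left out of the main fits and run as an alternative. With it ENSPANG00000032125 had a log2 difference of 2.53 between the iPSC lines (edgeR adjusted p = 0.0493).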
